A study of Mus musculus with 4 samples.

Results

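The Kcnq1ot1 and Cdkn1c domain is an imprinted cluster on distal mouse chromosome 7, described here through 9 genes chosen by name: Kcnq1ot1, Kcnq1, Cdkn1c, Phlda2, Slc22a18, Nap1l4, Cd81, Tssc4 and Osbpl5. All 9 were found among the 46320 genes of the RNA tables, and 3 of the 1600 listed methylation regions with levels lay in the same stretch, from 142.9 to 143.8 Mb (build mm10). The samples were prefrontal cortex of female F1 mice at 14 weeks of age, with a C57BL6J and a Spretus parent and, in every animal, Xist mutated on the chromosome inherited from the mother. There was 1 group, with no mice that lacked the mutation, and 2 libraries each for RNA-seq and for MethylC-seq, which reads the methylation of single cytosines after bisulfite treatment. By the labels' protocols the tissue was pooled over 2 individuals of separate litters, and the methylation libraries came from separate PCRs on converted DNA. No label ties the RNA libraries to different animals, so the p-values reflect the scatter of these libraries alone, which may be technical.

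In this domain the parental copies are used differently. Kcnq1ot1 is a long noncoding RNA that starts inside Kcnq1 and runs antisense to it, from a promoter that is methylated on the maternal chromosome and active on the paternal one. On the paternal chromosome it silences protein-coding neighbours in cis, over a long distance in placenta and a shorter one in the embryo. Cdkn1c, which encodes the cyclin-dependent kinase inhibitor p57, is the neighbour best known for maternal expression across tissues, and its human counterpart is linked to Beckwith-Wiedemann syndrome.

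The RNA libraries differed 3.69-fold in depth, with 4768237 allele-assigned reads in library 1 and 1291903 in library 2. Of the autosomal reads, 47.9% and 48.0% came from Spretus, which is the background for the shares below. Xist, the mutated gene, was 98.6% Spretus in library 1 and 98.9% in library 2, so C57 was taken as the maternal allele and Spretus as the paternal one. The cross was made in 1 direction, so an effect of strain cannot be told apart from one of the parent. The tissue carried its expected neuronal markers, with 5 of 5 (Rbfox3, Snap25, Syt1, Slc17a7 and Gad1) at an FPKM of at least 1 in each library. FPKM, as the authors deposited it, is a level per transcript length for both alleles together. Its scale differed between the libraries, with values a median of 5.72 times higher in library 1 over 11974 tested genes (interquartile range 4.91 to 6.69), so an FPKM of 1 is a stricter bound in library 2. Of the choroid plexus markers, 1 of 4 reached that level in library 1 and 0 of 4 in library 2, and of the meningeal fibroblast markers 3 of 4 and 1 of 4.

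The sequence at the start of Kcnq1ot1 is shown because the most extended methylation region of the domain covers it. It is the RefSeq promoter window on the minus strand at chr7:143296498-143296797 (GRCm38.p6), from 250 bases before the RefSeq start to 50 bases after it. Capitals mark CG, the dinucleotide at which most mammalian cytosine methylation falls.
Kcnq1ot1: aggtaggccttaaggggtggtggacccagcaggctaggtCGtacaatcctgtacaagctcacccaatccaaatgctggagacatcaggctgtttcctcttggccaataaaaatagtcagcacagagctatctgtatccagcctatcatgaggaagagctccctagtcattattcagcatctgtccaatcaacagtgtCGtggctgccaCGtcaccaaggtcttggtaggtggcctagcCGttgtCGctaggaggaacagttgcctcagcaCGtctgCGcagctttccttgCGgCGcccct
Of these 300 bases, 261 lay inside the methylation region and the first 39 outside it. All 9 CG dinucleotides lay inside, 7 of them in the last 100 bases. The median over 32851 RefSeq promoters of the same length was 7 CG, and 45.8% had at least 9. The letters CCAAT, searched on both strands, stood at bases 63, 103 and 184, counted from the 5′ end, all on the strand shown. Such a match was present in 37.4% of promoters, and 3.37% had at least 3. TGCCGC, the core letters bound by the imprint maintenance factor ZFP57, was searched on both strands with no match in this window, and was present in 11.6% of promoters. The rest of the methylation region, 2489 bp long in all, was not searched. RefSeq promoters were matched for 6 of the 9 genes, all but Kcnq1, Cdkn1c and Nap1l4. The Cd81 window held 23 CG, that of Tssc4 23, that of Phlda2 26 and that of Slc22a18 2. The 3 windows of Osbpl5 held 21, 1 and 16 CG, and the one with 21 had the only TGCCGC match among the windows of these genes. None of these other windows met a listed methylation region.

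Methylation differed between the alleles at Kcnq1ot1 and, in the opposite direction, at Cdkn1c. The region at Kcnq1ot1 (chr7:143294269-143296758, 2489 bp) had a methylation level, given by the authors as a fraction from 0 to 1, of 0.936 on C57 and 0.0191 on Spretus. It reached from 209 bases before the Kcnq1ot1 start into the transcript, where 2281 of its bases lay, and all of it lay within the Kcnq1 locus. By length it was number 5 of 1006 autosomal regions, whose median length was 76.5 bp. Its difference of 0.917 was less unusual, since 30.3% of autosomal regions, itself included, differed at least as much.

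The second region (chr7:143460120-143460661, 541 bp) lay wholly inside the Cdkn1c locus, 389 bases from the end of the locus that faces away from Kcnq1ot1. Its level was 0.00909 on C57 and 0.648 on Spretus. Another region (chr7:143463825-143463979, 154 bp) lay 2775 bases beyond Cdkn1c, outside any gene of the tables, with 0.0667 on C57 and 0.748 on Spretus. The 2 regions at Cdkn1c were thus nearly free of methylation on C57 and partly methylated on Spretus. The median Spretus level of all autosomal regions higher on Spretus was 0.840, above both. Regions higher on Spretus made up 26.6% of the autosomal list. The list held no region at Phlda2, Slc22a18, Nap1l4, Cd81, Tssc4 or Osbpl5, and the levels there are not known. The nearest listed region below the stretch lay 0.714 Mb from the Kcnq1ot1 start (chr7:142579875-142582519, 0.0535 on C57 and 0.886 on Spretus), and none was listed above it on the chromosome. Coverage and replicate spread of these levels are unknown, so no interval or test is given.

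**Figure D1:**
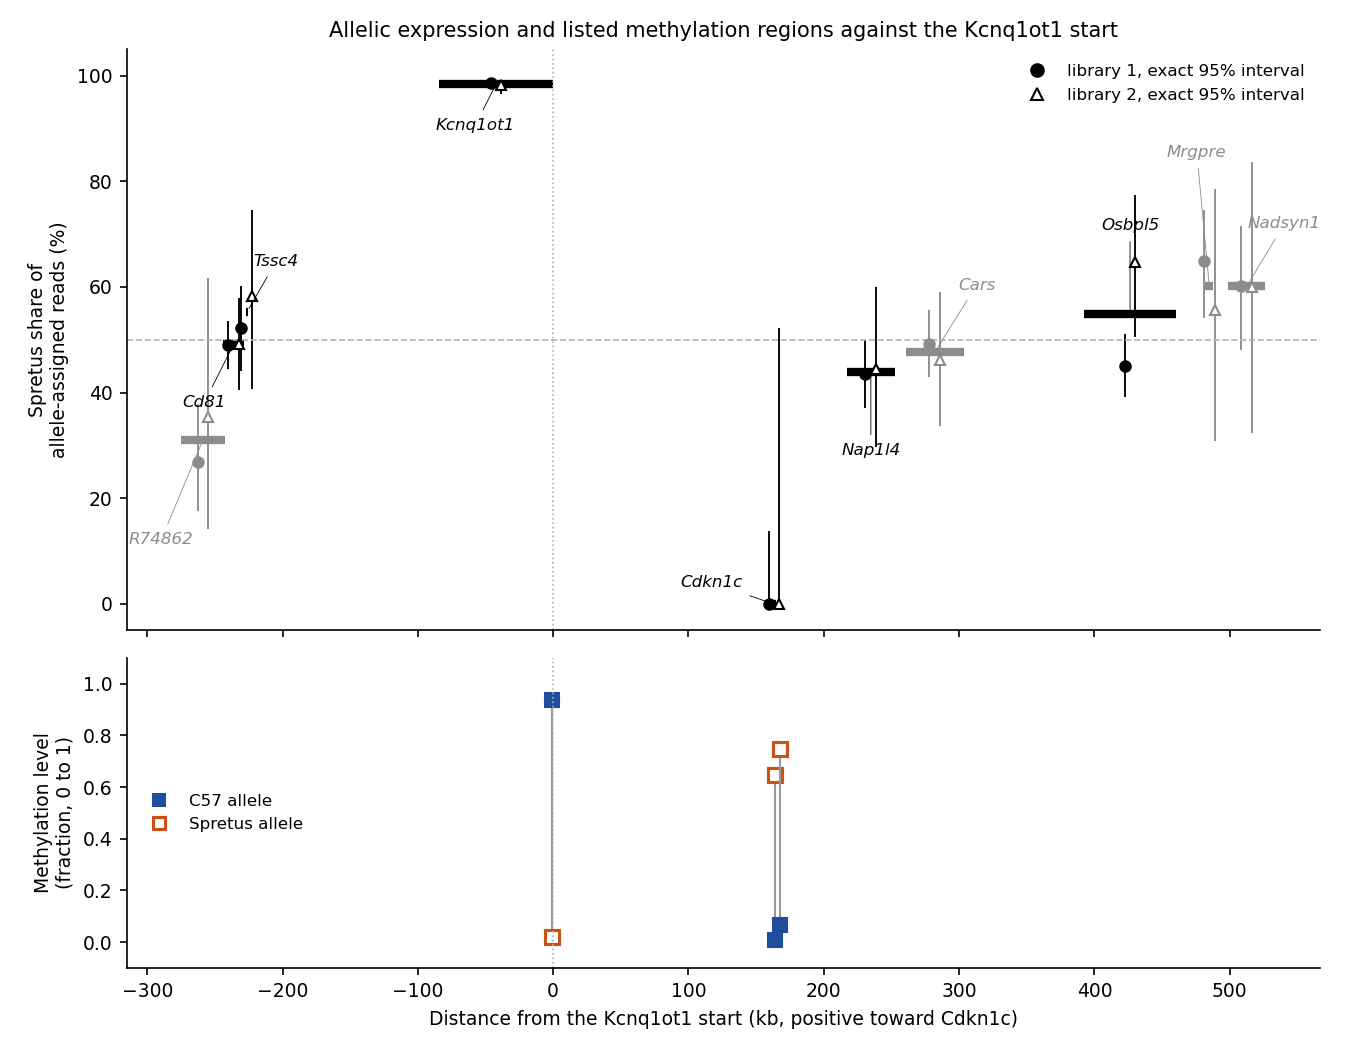
Allelic expression and methylation against distance from the Kcnq1ot1 start in kb, with positive values toward Cdkn1c. The upper panel shows the Spretus share of reads, with bars for gene spans at the mean share, circles for library 1, triangles for library 2, exact 95% intervals and a dashed line at 50%, the symbols of a gene being set slightly apart. Members are black and other tested genes grey, and Kcnq1, Slc22a18 and Phlda2, with no reads in library 2, are not drawn. The lower panel shows the methylation level of each allele in the 3 listed regions. Kcnq1ot1 stands at 98.4% and Cdkn1c at 0%, and the allele with high methylation at each is the one with few or no reads.

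Among the RNA values, Kcnq1ot1 was read almost only from the paternal Spretus allele. Kcnq1ot1 (ENSMUSG00000101609.1, chr7:143212155-143296549) had 2629 reads from Spretus and 36 from C57 in library 1, against 530 and 10 in library 2. Its Spretus share was 98.4% ± 0.354 (SD, n = 2). The exact Clopper-Pearson 95% intervals, which cover counting error only, were 98.1 to 99.1% in library 1 and 96.6 to 99.1% in library 2. Both libraries were thus far from the autosomal share, and they overlapped each other. The C57 remainder was 1.35% and 1.85% of reads, beside 1.42% and 1.12% for Xist. In edgeR's quasi-likelihood test the log2 ratio of Spretus over C57 was 6.12 (SE 0.35, Benjamini-Hochberg adjusted p = 1.87e-07). Kcnq1ot1 ranked number 25 toward Spretus among 11981 tested genes.

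Of the 9 genes, 5 reached the minimum of 10 allele-assigned reads per library and were tested, and 1 was called toward Spretus and 0 toward C57 at an adjusted p under 0.05. Over all 11981 tested genes, 8.55% were called, 2.32% toward Spretus and 6.23% toward C57. At an unadjusted p under 0.05 the count among the 5 was also 1 and 0, and the share of all tested genes at that threshold is not given here. DESeq2 called 1 and 0 of the 5, where it called 5.41% of all tested genes, 1.03% toward Spretus and 4.38% toward C57. With the library as a block the count was again 1 and 0, in a fit that called 25.0% of all tested genes, 10.8% toward Spretus and 14.2% toward C57. The median log2 ratio of the 5 was 0.16, against 0.01 over all tested genes.

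**Figure D2:**
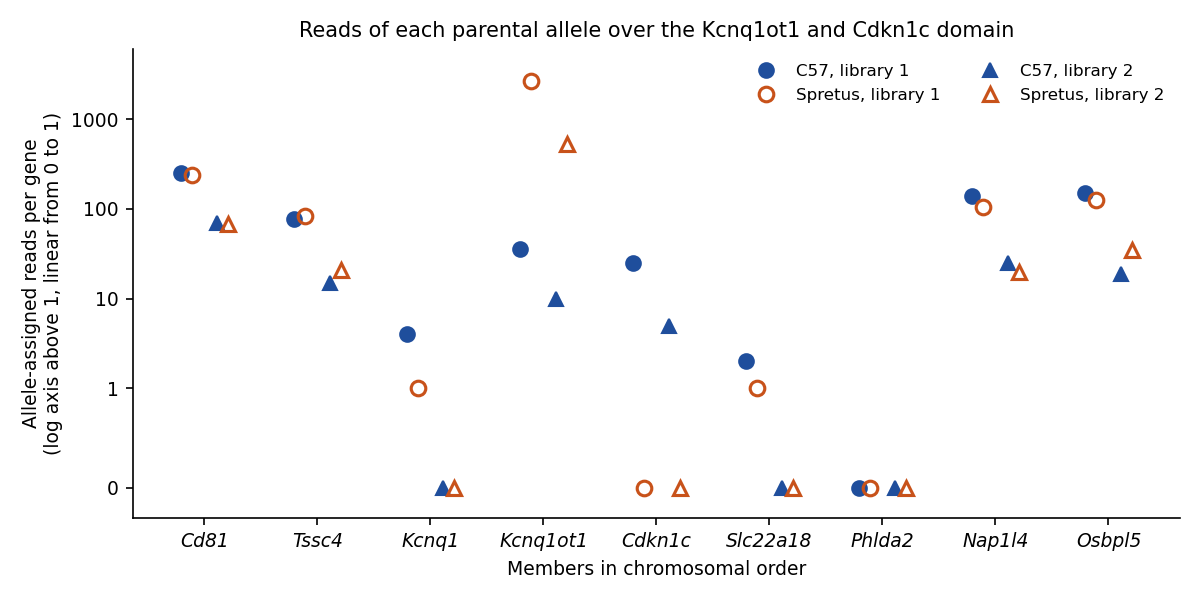
Allele-assigned reads of each of the 9 genes in chromosomal order, with the log axis made linear between 0 and 1. Filled blue symbols are C57, open orange symbols Spretus, circles library 1 and triangles library 2. Kcnq1ot1 has 2629 and 530 Spretus reads over 36 and 10 from C57, Cdkn1c has 25 and 5 reads from C57 alone, and the pairs of Cd81, Tssc4, Nap1l4 and Osbpl5 lie close together.

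Cdkn1c was read from the maternal C57 allele alone, at low depth. Cdkn1c (ENSMUSG00000037664.11, chr7:143458350-143461050) had 25 reads from C57 and 0 from Spretus in library 1, with 5 and 0 in library 2. A count of 0 allows a Spretus share of up to 12.0% in library 1, 60.0% in library 2 and 10.0% over the summed 30 reads. Against 3 reads over both libraries, C57 was at least 10-fold higher. With 5 reads in library 2 Cdkn1c was not tested. When every gene with at least 1 read was tested, edgeR called it toward C57 (Benjamini-Hochberg adjusted p = 1.66e-06, and 1.65e-06 with a library block). Of the 22876 genes then tested, 7.90% were called, 2.63% toward Spretus and 5.27% toward C57, and with the block 14.3%, 6.06% and 8.25%. Its FPKM was 2.45 and 0.595. In bulk tissue, expression in few cells and little RNA per cell cannot be told apart.

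Kcnq1, the host gene of Kcnq1ot1, encodes a voltage-gated potassium channel subunit known from heart and inner ear. Kcnq1 (ENSMUSG00000009545.13, chr7:143106362-143427042) had 4 C57 reads and 1 Spretus read in library 1, and no read in library 2. Its exact 95% interval in library 1, 0.505 to 71.6%, leaves its allelic state undetectable at this depth. All 84395 bases of the Kcnq1ot1 locus lie inside Kcnq1, and for the counts no strand setting is given in the sources used here. The reads of either gene could hold some of the other. The 5 reads of Kcnq1 stand against 3205 of Kcnq1ot1. A short noncoding gene inside Kcnq1, 4933417O13Rik, had 5 C57 reads in library 1 and 2 in library 2, with 0 from Spretus. It was not tested, and a count of 0 in 7 reads allows a share of up to 42.9%.

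Slc22a18, which encodes a membrane transporter, and Phlda2, which encodes a small pleckstrin-homology protein known for restraining placental growth, lie beyond Cdkn1c and are textbook maternally expressed genes. Slc22a18 (ENSMUSG00000000154.14, chr7:143473721-143499334) had 2 C57 reads and 1 Spretus read in library 1 and none in library 2. Phlda2 (ENSMUSG00000010760.4, chr7:143501545-143502541) had no allele-assigned read and was listed at an FPKM of 0 in each library. Their allelic state was not detectable at this depth.

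The 4 remaining genes, known for imprinted expression in placenta, were read from both alleles. Cd81, which encodes a tetraspanin of the cell surface, had 251 reads from C57 and 241 from Spretus in library 1, with 69 and 67 in library 2 (ENSMUSG00000037706.15, chr7:143052739-143067934). Its share was 49.1% ± 0.199 (SD, n = 2). Tssc4, which encodes a factor of spliceosome assembly, had 77 from C57 and 84 from Spretus in library 1, with 15 and 21 in library 2 (ENSMUSG00000045752.11, chr7:143069249-143071093). Its share was 55.3% ± 4.36, and its locus lies wholly within that of Trpm5, which had no allele-assigned read. Both genes lie on the side of Kcnq1ot1 that its transcript runs toward.

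On the Cdkn1c side, Nap1l4, which encodes a histone chaperone, had 138 reads from C57 and 106 from Spretus in library 1, with 25 and 20 in library 2 (ENSMUSG00000059119.8, chr7:143513579-143549090). Its share was 43.9% ± 0.708 (SD, n = 2), and the exact 95% interval of library 1, 37.1 to 49.9%, contained the autosomal share. Osbpl5, which encodes a lipid transfer protein of membrane contact sites, had 151 from C57 and 124 from Spretus in library 1, with 19 and 35 in library 2 (ENSMUSG00000037606.16, chr7:143688762-143756985). It was the least even between libraries, with shares of 45.1% (39.1 to 51.2%) and 64.8% (50.6 to 77.3%), intervals that overlap only narrowly.

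None of these 4 passed the test. By edgeR, with Benjamini-Hochberg adjustment, the log2 ratios were 0.07 for Cd81 (SE 0.17, adjusted p = 0.903), 0.35 for Tssc4 (SE 0.26, adjusted p = 0.569), -0.23 for Nap1l4 (SE 0.24, adjusted p = 0.742) and 0.16 for Osbpl5 (SE 0.27, adjusted p = 0.867). In the blocked fit edgeR's adjusted p was 0.694, 0.264, 0.332 and 0.902. The sign for Cd81 turned, to -0.052, when each allele was scaled by the library's whole total, a scaling that moved the median of all genes to -0.12. The sign for Osbpl5 turned in library 1 alone, to -0.10, against 1.05 in library 2 alone.

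**Figure D3:**
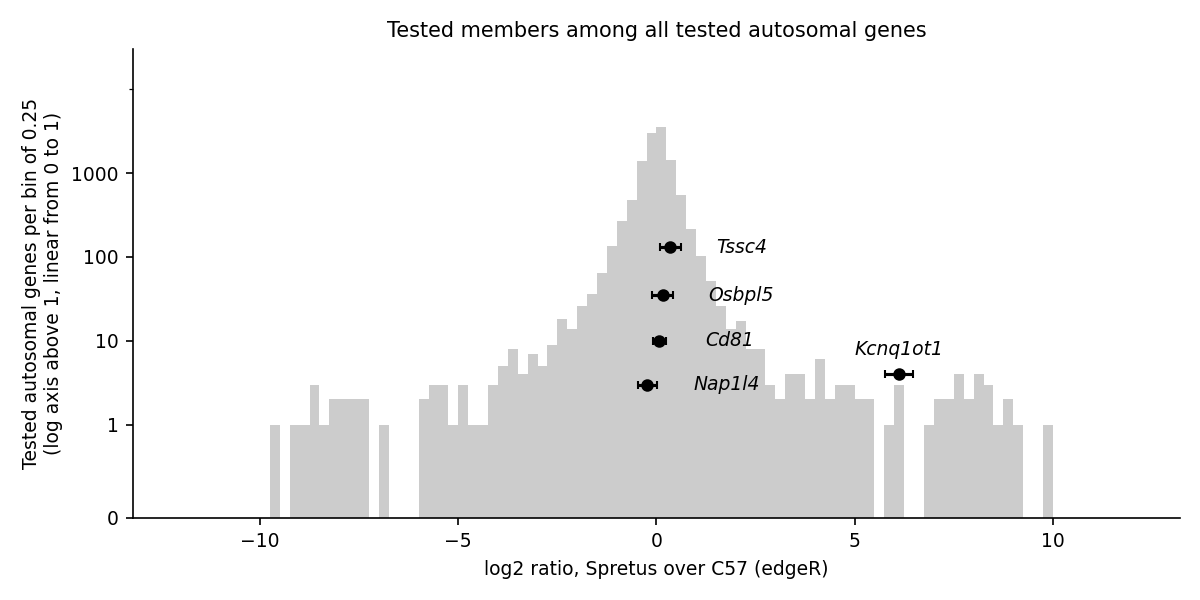
Distribution of the log2 ratio of Spretus over C57 over tested autosomal genes, in bins of 0.25, with the 5 tested genes of the domain as points with standard errors. The count axis is logarithmic above 1, and the height of the points carries no value. Cd81, Tssc4, Nap1l4 and Osbpl5 lie between -0.23 and 0.35, within the body of the distribution, and Kcnq1ot1 lies at 6.12.

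Of 30 further genes whose loci met the same stretch, 14 had any allele-assigned read, 4 were tested and 1 was called. Over all tested genes 8.55% were called. The median absolute log2 ratio of the 4 was 0.80, against 0.22 over all tested genes. R74862, a noncoding gene, was called toward C57, with 60 reads from C57 and 22 from Spretus in library 1, with 11 and 6 in library 2. Its log2 ratio was -1.17 (SE 0.32, Benjamini-Hochberg adjusted p = 0.0460 by edgeR). Its locus, on the minus strand, overlaps Cd81 by 948 bases at its start, so its reads there cannot be assigned to it alone. This call was lost with DESeq2 (adjusted p = 0.726) and with alleles sharing the library total (edgeR, adjusted p = 0.0553), and without library 1 the ratio was -0.64. Cars, a transfer RNA synthetase gene, was even at 47.7% ± 2.16 (SD, n = 2). Mrgpre, a receptor gene, stood at 60.2% ± 6.56 and Nadsyn1, of NAD synthesis, at 60.1% ± 0.194, and neither was called. With the library as a block, edgeR's test called Mrgpre toward Spretus (log2 ratio 0.91, Benjamini-Hochberg adjusted p = 0.00839), in a fit that called 10.8% of all tested genes toward Spretus.

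Among the tested genes from 217.0 kb outward, the shares showed no clear order by distance from the Kcnq1ot1 start. Apart from Kcnq1ot1 no gene nearer than that was tested, so an order from near to far could not be seen. From the nearest edge of each locus, Cdkn1c lay 161.8 kb away, Slc22a18 177.2 kb, Phlda2 205.0 kb, Nap1l4 217.0 kb, Tssc4 225.5 kb, Cd81 228.6 kb and Osbpl5 392.2 kb. Cdkn1c had 0% Spretus, and Nap1l4, further out on the same side, 43.9%. Over the 9 tested genes of the stretch, the Spearman correlation of distance with how far the share lay from 50% was -0.12. Over the 8 other than Kcnq1ot1 it was 0.26, and to gene starts, over 7 genes, -0.32. Cdkn1c, the nearest of the genes listed above, was not tested and is in none of these values. Also left out as untested are 4933417O13Rik, 26.2 kb away with 0 Spretus in 7 reads, and Kcnq1 and Slc22a18, with 1 Spretus read each. The genes share their libraries, and the correlation is a description only.

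In level, the 4 tested genes read from both alleles near evenly were the highest of the 9. Genes with few reads could not be placed in that class, so class and level are not independent here. Cd81 stood at an FPKM of 184 and 37.6 in libraries 1 and 2, Nap1l4 at 28.3 and 4.63, Tssc4 at 12.5 and 2.24 and Osbpl5 at 11.4 and 1.85. Cdkn1c followed, and Kcnq1ot1 stood at 2.05 and 0.319. Kcnq1, at 0.216 and 0.0420, and Slc22a18, at 0.136 and 0.0423, were lowest above Phlda2, and they changed places between the libraries. Relative to the median of 5.72 over tested genes, the ratio of library 1 to library 2 was 1.12 for Kcnq1ot1, 0.854 for Cd81, 0.720 for Cdkn1c and 0.562 for Slc22a18, the most uneven of the 8 with a value. Kcnq1ot1, sixth of the 9 by FPKM, held 68.9% and 66.2% of their allele-assigned reads, over a locus of 84.4 kb. Read counts follow the length and the number of bases that differ between the strains as well as the level, so they do not order genes by expression.

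**Figure D4:**
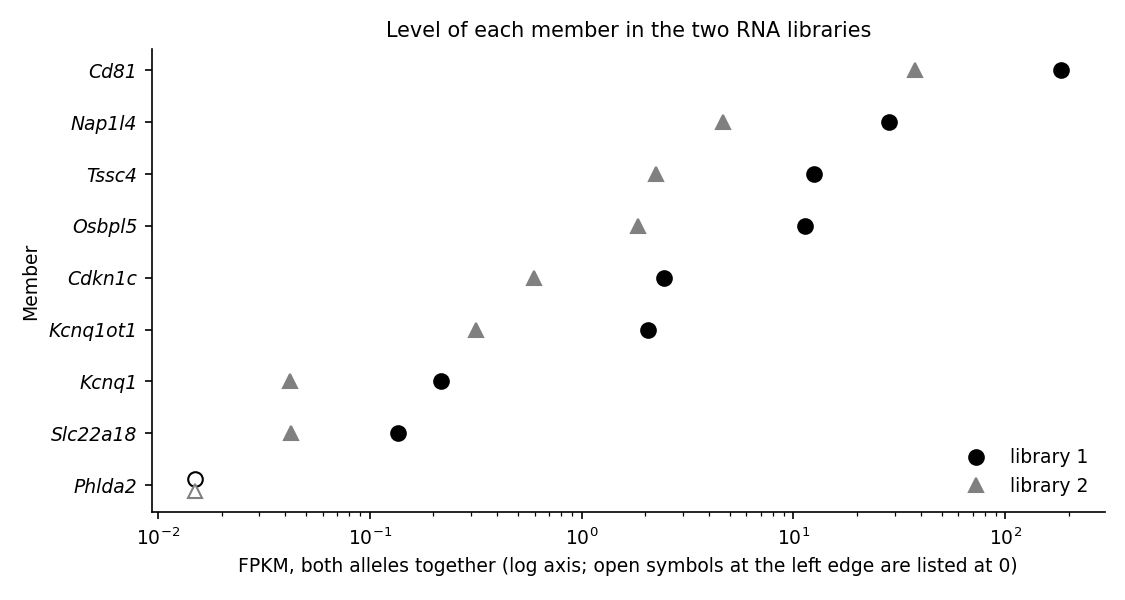
FPKM of each of the 9 genes on a log axis, with circles for library 1 and triangles for library 2, and with open symbols at the left edge for Phlda2, which is listed at 0. Cd81 is highest at 184 and 37.6, and values in library 2 lie below those in library 1 for the 8 genes above 0.

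The machinery known to act at such domains was read from both alleles. Of 17 genes of repressive chromatin and imprint maintenance, 15 were tested. Of these, 0 were called in either direction by edgeR's quasi-likelihood test, by the same test with the library as a block or by DESeq2. Over all tested genes these fits called 8.55%, 25.0% and 5.41%, so among 15 genes a count of 0 lies near the first and last share. At an unadjusted p under 0.05, edgeR's test without the block also gave 0, and with the block it gave 2 toward Spretus and 0 toward C57. The share of all tested genes at that unadjusted threshold is not given here. Spretus shares of the 15 tested genes ran from 41.7 to 56.7%. Hells and Uhrf1, with 38 and 9 reads in all, were not tested and had mean shares of 20.7% and 68.8%. Over summed reads the shares were 15.8% and 44.4%, since Uhrf1 had only 1 read in library 2, from Spretus. The median FPKM of the 17 was 10.0 in library 1 and 2.06 in library 2. Ezh2, a methyltransferase of Polycomb complex PRC2, stood at 5.27 and 1.26, Ehmt2, which encodes G9a, at 34.5 and 5.30, Dnmt1, the maintenance methyltransferase, at 10.0 and 1.96 and Zfp57 at 4.20 and 0.660. Hells, untested for lack of reads, had 27 reads from C57 and 4 from Spretus in library 1, with 5 and 2 in library 2, and was called toward C57 when every gene with at least 1 read was tested.

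Chromosomal neighbours and protein relatives were mostly even or unmeasured. Over all tested genes, edgeR's test called 8.55%, 2.32% toward Spretus and 6.23% toward C57, which is the background for both lists. Of 13 neighbours in cis, 4 were tested and Igf2, of the adjoining imprinted cluster, was called toward C57 at 25.2% ± 1.42 (SD, n = 2). Ascl2, Th and Tspan32, beyond Cd81, had 1, 16 and 2 reads in all. Of 16 relatives and partners found, 11 were tested, 1 was called toward Spretus and 2 toward C57. The first was the imprinted Nap1l5 (98.0% ± 0.247), and the others were the X-linked Nap1l2, with 0 Spretus in 248 and 85 reads, and Nap1l3, with 1 in 321 and 0 in 127. Cdkn1b, which encodes the related inhibitor p27, stood at 58.9% ± 6.67 and was not called, and Cdkn1a at 47.4% ± 9.40. With the library as a block, edgeR's test called 3 relatives toward Spretus, Cdkn1b among them, and 3 toward C57, Kcnq5 among them. That fit called 10.8% of all tested genes toward Spretus and 14.2% toward C57.

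Outside the stretch, the 5 tested genes nearest to Kcnq1ot1 in log2 ratio over the 2 libraries were Dnah12 (an absolute difference of 0.03), Ndn (0.04), Nap1l5 (0.27), Xist (0.35) and Sgce (0.82). Their Spretus shares were 99.2% ± 1.07 (SD, n = 2), 98.5% ± 0.616, 98.0% ± 0.247, 98.7% ± 0.210 and 98.4% ± 2.21. Dnah12 had 80 allele-assigned reads in all, against 3205 for Kcnq1ot1, so its ratio is less certain. The SE for Dnah12 was 0.57 by edgeR and 1.35 by DESeq2.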

How the data were processed

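The genes and lists were chosen with earlier results of these data known. Named genes were the 9 members, every other tested gene in the stretch, lists of cis neighbours, silencing factors and protein relatives, the 5 genes of nearest log2 ratio and Xist. Per the file headers, the authors deposited raw counts of reads per gene and allele, and 1 FPKM per gene. The authors' deposited region list gives methylation as a fraction per allele. Of its 1613 regions, 13 without levels were left out. Region coordinates are as listed, with length as end minus start. Named without roles in the submitters' processing notes are bedtools 2.2.4, HTSeq 0.6.0, Cufflinks 2.1.1, TopHat2 2.0.9 and mm10. Allele assignment, annotation, strand setting, region caller thresholds, cytosine context and pooling: not given in the sources used here. Gene starts count from 0 in the tables (1 added; this matched RefSeq for 38.6% of genes against 2.31% as listed).

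Counts were tested with edgeR 4.0.16 (R 4.3.3; TMM, quasi-likelihood, allele as the only term, at least 10 reads in each library, Benjamini-Hochberg adjustment over 11981 genes), after a check on simulated data. Residual degrees of freedom were 2, to which the spread shared over genes added 9.34 prior ones. The SE given for edgeR is the absolute log2 ratio over the square root of the test's F statistic, not a fitted value. DESeq2 1.42.0 was an alternative. Both allele counts of a library were read from 1 RNA preparation, which pairs them by design. Over 7565 genes their deviations had a correlation of 0.597. The libraries' gene totals differed beyond sampling noise (chi-square 3.83 times its degrees of freedom), while Spretus shares per gene differed by no more than it (0.840 times). A share of 0 is limited by 3 reads of the total. Intervals came from SciPy 1.17.1. One gene of the list of relatives is not reported here by name.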

Additional observations from a re-analysis of the deposited data

How the results depend on the processing

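Kcnq1ot1 remained called toward Spretus in each of 7 alternatives (log2 ratio 5.98 to 6.23, largest adjusted p 2.62e-06), 6.23 with the library as replicate block among them, and stood at 5.84 and 6.35 in 1 library alone. Testing every gene with at least 1 read raised the count called toward C57 from 0 to 1 (Cdkn1c), with the block as well, a combination chosen after seeing the data; no other alternative moved either count. With alleles sharing the library total, Cd81 (-0.052) and Cars (-0.11) changed sign, uncalled throughout; the cause was not tested. Of 51 tested values for the other 8 genes of the stretch, 45 kept direction and call. Leaving out a library moved 0 to 2 genes in the FPKM order. The distance correlation was -0.32 to gene starts, over the 7 genes matched to a RefSeq strand, and 0.26 over the 8 genes other than Kcnq1ot1, the latter chosen after seeing the data. Over all genes, 1024 were called, against 2999 with the block, 648 by DESeq2, 351 at a minimum of 50 reads and 1808 without the minimum. Calls toward C57 were 72.9% of the total, and 56.9% with the block. A test of calls in 1 library was not run, since none leaves residual degrees of freedom. Depth limits Cdkn1c in library 2, and Kcnq1, Slc22a18 and Phlda2 in each library.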
